A study of Mus musculus with 16 samples.

Results

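The 10 genes described here are Gfap, Vim, Serpina3n, Aqp4, Cd44, Osmr, S100b, Aldh1l1, Slc1a2 and Slc1a3, which are used as markers of astrocytes or of their reactive state. They were chosen by gene symbol from 54532 genes in a table of RNA-seq counts from mouse hippocampus, and all 10 passed the filter on low counts in every comparison. The table held 16 mice in 4 groups of 4. WT mice and hTau.P301S mice, which carry a transgene for human tau, mutated at P301S and driven by the Thy1 promoter that is used for expression in neurons, received either vehicle water or 6 mM nicotinamide riboside (NR), a precursor of NAD+, in drinking water. The untreated groups are called WT and hTau.P301S, and the treated ones have + NR after the name. According to the sample labels, treatment began at 12 months of age, lasted 3 months and ended at 15 months. The published account gives other ages and, in 1 place, another duration, so age and duration are uncertain. All mice took behavioral tests before tissue collection.

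Astrocytes take up glutamate and potassium, move water at their endfeet around blood vessels, and supply neurons with metabolites. In injury and neurodegeneration they become reactive, with more intermediate filament protein and with secreted and cell surface proteins that resting cells make in small amounts. Signals of the interleukin-6 family, received in part through OSMR and passed on by STAT3, are among the known inducers of this state. Hippocampus was sequenced whole, so fewer astrocytes and less RNA per astrocyte cannot be told apart in any value below.

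Total counts were 16490261 to 21915362 per mouse. One library stood apart. In hTau.P301S replicate 1, 14.4% of counts were mitochondrial, against 4.48% to 7.07% in the other 15 mice, 19467 genes had a count against at least 22199, and levels fell with gene length by 0.72 on the log2 scale per doubling of length, against slopes of -0.16 to 0.17 elsewhere. Selected values are given also without it. Thy1 itself, part of the transgene's name, had 804 to 1640 counts scaled to a common library size (CPM) in hTau.P301S and 667 to 845 CPM in hTau.P301S + NR mice, above the 424 to 633 CPM of the 8 mice labelled WT, and so separated the genotypes as labelled.

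Levels are given as CPM with library sizes adjusted by the TMM method, or per kilobase of deposited gene length (CPM per kb) where genes are compared with each other. Over the 16 mice Gfap had the highest level per length, 233 ± 138 CPM per kb (SD, n = 16), followed by Slc1a2 at 183 ± 55.5 CPM per kb, and both lay within each other's spread. In WT mice the order was the reverse, with 117 ± 38.5 CPM per kb for Gfap and 173 ± 64.7 CPM per kb for Slc1a2 (SD, n = 4). S100b (91.0 ± 29.2 CPM per kb) and Slc1a3 (74.0 ± 17.6 CPM per kb) came next and lay within each other's spread. Serpina3n, Aqp4 and Vim had 41.2, 28.9 and 20.1 CPM per kb and Aldh1l1 11.8 CPM per kb. Cd44 (1.09 CPM per kb) and Osmr (0.71 CPM per kb) were far lower, and even so rested on at least 53 counts in each mouse. The lowest and highest mouse differed 2.02-fold for Aldh1l1 and 6.98-fold for Gfap. All 10 genes were detected in all 16 libraries.

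Promoter sequence is shown for Gfap, Serpina3n and Osmr, because the levels of these genes moved together over the mice, as described below. Each window runs from 250 bases before to 30 bases after the RefSeq start site on build GRCm38.p6, 5′ to 3′ on the strand of the gene, and capitals mark matches to the motifs searched. The Gfap window is chr11:102897171-102897450 on the minus strand, that of Serpina3n chr12:104406458-104406737 on the plus strand and that of Osmr chr15:6874284-6874563 on the minus strand.
Gfap: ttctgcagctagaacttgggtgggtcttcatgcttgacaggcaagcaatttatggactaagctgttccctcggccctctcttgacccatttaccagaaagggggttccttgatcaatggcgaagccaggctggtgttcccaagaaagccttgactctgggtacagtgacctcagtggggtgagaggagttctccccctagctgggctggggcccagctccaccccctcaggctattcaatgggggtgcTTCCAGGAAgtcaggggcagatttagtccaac
Serpina3n: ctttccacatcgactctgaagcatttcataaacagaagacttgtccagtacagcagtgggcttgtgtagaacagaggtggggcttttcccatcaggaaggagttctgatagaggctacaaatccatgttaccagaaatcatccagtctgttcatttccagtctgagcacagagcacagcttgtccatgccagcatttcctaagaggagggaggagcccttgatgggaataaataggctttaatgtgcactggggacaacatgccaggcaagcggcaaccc
Osmr: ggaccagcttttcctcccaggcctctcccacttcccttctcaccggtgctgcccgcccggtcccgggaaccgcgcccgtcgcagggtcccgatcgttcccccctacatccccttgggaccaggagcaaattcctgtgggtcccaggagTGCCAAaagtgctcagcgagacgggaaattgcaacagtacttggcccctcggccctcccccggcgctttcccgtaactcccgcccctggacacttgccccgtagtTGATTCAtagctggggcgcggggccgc

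Windows of 300 bases, from 250 before to 50 after the start, were searched on both strands in the 9 members whose promoters were taken from RefSeq and in 32851 promoters in all. The STAT motif TTCNNNGAA matched in 2 of 9 members and in 8.30% of all promoters. In Gfap the match, TTCCAGGAA, lay at positions -2 to 6 counted from the start site as 0, and Slc1a3 held the other. The AP-1 motif TGANTCA was present in Osmr alone among the 9, at positions 3 to 9, and in 7.81% of all promoters. The NFI core TTGGCA occurred in 2 members, Osmr and S100b, and in 14.1% of all promoters, and TATAAA occurred in 2 of 9 against 13.6%. The Serpina3n window held none of these letters. GC content was 66.0% in Osmr, 55.7% in Gfap and 48.7% in Serpina3n, against a median of 52.7%. No binding was measured, so these matches are a description only.

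Serpina3n, which encodes a secreted serine protease inhibitor and is a widely used marker of reactive astrocytes, differed most between hTau.P301S and WT mice. Its level was 53.2, 32.9, 35.1 and 36.1 CPM in the 4 WT mice and 161, 150, 126 and 77.5 CPM in the 4 hTau.P301S mice. Every hTau.P301S mouse lay above every WT mouse. Of the 16375 genes tested, 6.24% were without overlap and 3.55% were without overlap and higher in hTau.P301S mice. The means were 39.4 ± 9.34 and 129 ± 37.0 CPM (SD, n = 4 each), and the fitted difference was 3.28-fold, or 1.72 ± 0.28 on the log2 scale (SE), with an unadjusted p of 0.000162 and an adjusted p of 0.198 by edgeR's quasi-likelihood test. That does not pass the threshold of an adjusted p under 0.05 with an absolute log2 fold change above 0.5. DESeq2, the tool used by the study, called it on the same mice (log2 fold change 1.69, adjusted p = 4.95e-05) and in a fit of all 4 groups (1.70, adjusted p = 0.00632), fits in which DESeq2 called 116 of 30014 genes (0.386%) and 492 of 32880. Without hTau.P301S replicate 1 the edgeR value was 1.58 (adjusted p = 0.0810). Of 11 Serpina3 genes in the table Serpina3n had 24903 counts over all mice and the next, Serpina3k, 312, so reads shared among these close copies are uncertain but few were assigned elsewhere.

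Gfap, the intermediate filament protein that defines reactive astrocytes in histology, was also higher in most hTau.P301S mice. WT mice had 699, 425, 317 and 526 CPM and hTau.P301S mice 1250, 1365, 1346 and 666 CPM. Replicates 1 to 3 of hTau.P301S stood above all WT mice, whereas the fourth fell just under the highest WT mouse. The difference was 2.36-fold (1.24 ± 0.33 on the log2 scale, unadjusted p = 0.00474, edgeR adjusted p = 0.598), and 1.19 without hTau.P301S replicate 1 (edgeR adjusted p = 0.298). Vim, the other intermediate filament gene of the set, did not separate the groups, with 99.6, 91.5, 29.7 and 88.3 CPM in WT and 163, 128, 71.8 and 61.8 CPM in hTau.P301S mice. Its difference was 0.46 ± 0.44 on the log2 scale (edgeR adjusted p = 0.687), and 0.17 without hTau.P301S replicate 1.

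Osmr, the oncostatin M receptor subunit, measured 5.70, 3.75, 6.43 and 8.38 CPM in WT and 6.15, 13.8, 10.0 and 7.98 CPM in hTau.P301S mice. The groups overlapped, and the difference was 0.65 ± 0.33 on the log2 scale (unadjusted p = 0.0858, edgeR adjusted p = 0.598). Without hTau.P301S replicate 1, the lowest of its group for this long transcript, the difference was 0.80 (unadjusted p = 0.0269, edgeR adjusted p = 0.388). Cd44, the hyaluronan receptor, measured 4.49, 3.47, 9.33 and 2.87 CPM in WT and 8.38, 7.68, 6.54 and 6.98 CPM in hTau.P301S mice. WT replicate 3 exceeded all hTau.P301S mice and the other 3 WT mice lay below them all, and the log2 difference was 0.56 ± 0.38 (edgeR adjusted p = 0.607).

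The genes of resting astrocyte functions showed no difference past the threshold. Aqp4, the water channel of astrocyte endfeet, had 149, 126, 110 and 130 CPM in WT and 54.5, 124, 121 and 107 CPM in hTau.P301S mice, a log2 difference of -0.34 ± 0.26 (edgeR adjusted p = 0.629). The low value was that of hTau.P301S replicate 1, and without it the difference was -0.14. Slc1a3, the glutamate transporter GLAST, had 563, 636, 604 and 559 CPM in WT and 173, 660, 712 and 676 CPM in hTau.P301S mice. The 173 CPM were again from replicate 1. Without it all 3 remaining hTau.P301S mice lay above all WT mice, and the log2 difference turned from -0.09 ± 0.39 to 0.20 (unadjusted p = 0.143, edgeR adjusted p = 0.535). Slc1a2, the glutamate transporter GLT-1, was likewise lowest in that mouse. It had 2315, 1054, 2761 and 2938 CPM in WT and 814, 2919, 1949 and 2170 CPM in hTau.P301S mice. The log2 difference was -0.21 ± 0.44, and 0.04 without hTau.P301S replicate 1. WT replicate 2, the mouse at 1054 CPM, had the lowest slope with gene length of the other 15 libraries, -0.16. With the length trend removed over all mice of both groups the log2 difference was 0.060.

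Aldh1l1, an enzyme of folate metabolism used as a general astrocyte marker, had 43.3, 58.8, 45.7 and 34.5 CPM in WT and 69.8, 60.1, 56.5 and 55.6 CPM in hTau.P301S mice (log2 difference 0.41 ± 0.20, unadjusted p = 0.0736, edgeR adjusted p = 0.598). Only WT replicate 2 reached the range of the hTau.P301S mice. S100b, a calcium-binding protein of astrocytes, had 122, 146, 87.1 and 96.7 CPM in WT and 276, 106, 140 and 121 CPM in hTau.P301S mice, with a log2 difference of 0.52 ± 0.34 (edgeR adjusted p = 0.599) that was 0.11 without replicate 1. Exons of Aldh1l1 and Slc1a2 share 499 and 189 bases with antisense genes, and the sources used here do not state whether reads were counted by strand, so reads of these pairs cannot be told apart. Aldh1l1 also shares 105 exon bases with Gm45901, a noncoding gene on the same strand, and reads there are uncertain.

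In all, none of the 10 genes was called between hTau.P301S and WT mice by edgeR, where 0.00611% of genes were called, that is 1 gene. At an unadjusted p under 0.05, 2 of 10 were higher and none lower, against 7.14% of all genes in either direction and 3.41% higher. The difference was above 0 for 7 of 10, against 52.3% of all genes, and the median log2 difference of the 10 was 0.49 against 0.02 for all genes. When hTau.P301S replicate 1 was left out the median was 0.26 against -0.03, 9 of 10 were above 0, and 3 of 10 had an unadjusted p under 0.05 against 11.8% of all genes.

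**Figure D1:**
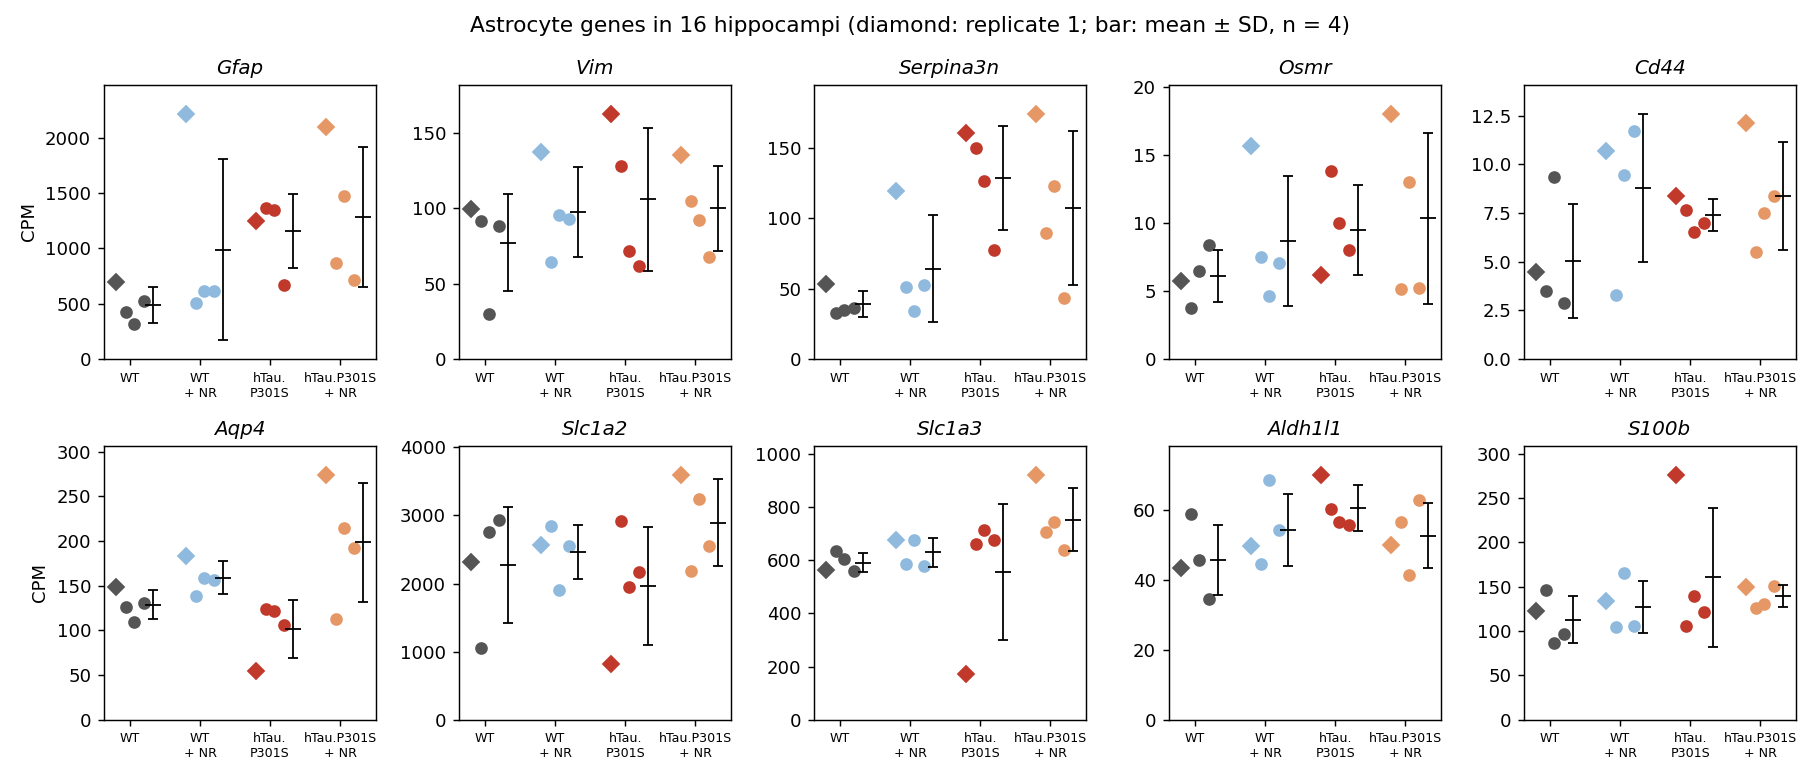
Levels of the 10 genes in CPM (y axis, linear, from 0) in each of 16 mice, by group on the x axis; diamonds are the mice numbered 1, circles the others, and bars the mean ± SD of 4 mice. The 4 hTau.P301S mice sit above the 4 WT mice for Serpina3n, and hTau.P301S replicate 1 is the lowest of all 16 mice for Slc1a2, Slc1a3 and Aqp4.

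In hTau.P301S replicate 1 the members departed from the rest of their group in both directions. It was above all 3 other hTau.P301S mice for 5 genes, below all 3 for 4 and within their range for Gfap alone. Relative to the mean of the other 3, S100b was 2.26-fold and Vim 1.86-fold, while Slc1a3 was 0.25-fold, Slc1a2 0.35-fold, Aqp4 0.47-fold and Osmr 0.58-fold. Over the 10 genes the log2 ratio and log2 length had a Pearson r of -0.75, a description over genes of 1 library. Aqp4, whose deposited length is 5082 bases against 6233 in summed GENCODE exons, lay well below the genes of similar length.

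**Figure D2:**
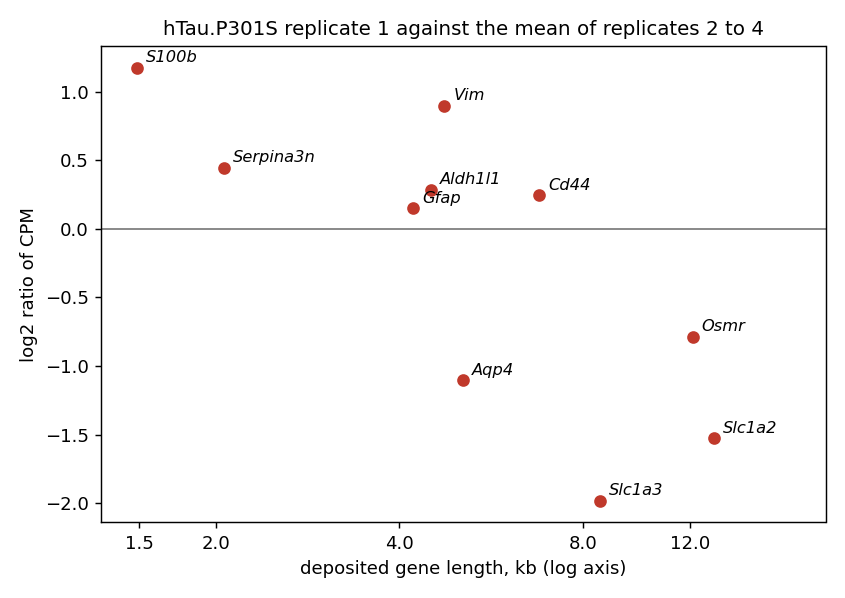
For each of the 10 genes, the log2 ratio of CPM in hTau.P301S replicate 1 to the mean of replicates 2 to 4 (y axis) against deposited gene length in kb (x axis, log scale). S100b, the shortest gene, had the highest log2 ratio, 1.17, and the 4 genes with negative log2 ratios, Aqp4, Osmr, Slc1a2 and Slc1a3, were all longer than 5.0 kb.

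The mice that received NR gave a separate set of mice for the same genotype comparison. Serpina3n measured 120, 51.4, 33.8 and 52.4 CPM in WT + NR and 174, 89.4, 123 and 43.6 CPM in hTau.P301S + NR mice. The groups overlapped through both a high WT + NR mouse and a low hTau.P301S + NR mouse, and the log2 difference was 0.74 ± 0.46 (unadjusted p = 0.141, edgeR adjusted p = 0.782). Gfap measured 2213, 506, 617 and 618 CPM in WT + NR and 2101, 866, 1471 and 712 CPM in hTau.P301S + NR mice. WT + NR replicate 1 was the highest of all 16 mice, although the other 3 WT + NR mice lay below every hTau.P301S + NR mouse. The log2 difference was 0.38 ± 0.52 (edgeR adjusted p = 0.881) with WT + NR replicate 1 and 1.16 without it.

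Among the other members Slc1a3 had the smallest p, with 675, 587, 676 and 578 CPM in WT + NR and 920, 707, 744 and 639 CPM in hTau.P301S + NR mice (log2 difference 0.26 ± 0.14, unadjusted p = 0.0907, edgeR adjusted p = 0.781). Only hTau.P301S + NR replicate 4 fell within the WT + NR range. Osmr measured 15.6, 7.49, 4.64 and 7.05 CPM in WT + NR and 18.0, 5.11, 13.0 and 5.20 CPM in hTau.P301S + NR mice, so that each group held high and low mice. Vim (137, 64.7, 95.6 and 93.0 CPM against 136, 105, 92.0 and 67.8 CPM) differed little on average between the groups. Cd44 (10.7, 3.28, 9.43 and 11.7 CPM against 12.1, 5.48, 7.51 and 8.36 CPM) differed little as well, their log2 differences being 0.03 ± 0.25 and -0.07 ± 0.38.

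Slc1a2 (2571, 2839, 1903 and 2548 CPM in WT + NR; 3592, 2189, 3243 and 2550 CPM in hTau.P301S + NR mice) had a log2 difference of 0.23 ± 0.19. S100b (133, 104, 166 and 106 CPM; 150, 126, 131 and 151 CPM) had one of 0.13 ± 0.16, and Aldh1l1 (49.6, 44.5, 68.6 and 54.1 CPM; 50.0, 56.4, 41.2 and 62.7 CPM) one of -0.04 ± 0.17, and all 3 genes overlapped. For Aqp4, whose values in these mice are given below with the NR effects, the log2 difference was 0.32 ± 0.23 (edgeR adjusted p = 0.801), again with overlap. No member was called by edgeR (0.0540% of all genes were) or by DESeq2, none had an unadjusted p under 0.05 (6.09% of all genes did) and none was without overlap (3.73%). The log2 difference was above 0 for 8 of 10 (47.0% of all genes), with a median of 0.24 against -0.02 for all genes.

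With both treatments in 1 fit over 16 mice and NR as a second term, Serpina3n was 2.34-fold higher in hTau.P301S mice, 1.22 ± 0.31 on the log2 scale (unadjusted p = 0.00117, edgeR adjusted p = 0.287). Without WT + NR replicate 1 the same fit gave 1.49 and an edgeR adjusted p of 0.0225, which passes, as did 0.257% of all genes, and DESeq2 on all 16 mice called it at 1.22 (adjusted p = 0.0215) with 0.332% of all genes. Gfap was 1.75-fold higher (0.81 ± 0.34, unadjusted p = 0.0314, edgeR adjusted p = 0.593), and 1.19 on the log2 scale without WT + NR replicate 1 (edgeR adjusted p = 0.0690). Both genes were therefore higher with the transgene in each fit run, and whether edgeR called Serpina3n rested on 1 WT + NR mouse. Slc1a3, at 0.09 ± 0.22 on the log2 scale with all mice, was 0.23 without hTau.P301S replicate 1 (unadjusted p = 0.0139, edgeR adjusted p = 0.263). None of the 10 was called by edgeR against 0.120% of all genes, and 2 of 10 had an unadjusted p under 0.05 against 7.75%. All 10 had overlapping genotypes, and 0.194% of all genes did not. The log2 difference was above 0 for 9 of 10 against 51.6% of all genes, with a median of 0.24 against 0.01.

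**Figure D3:**
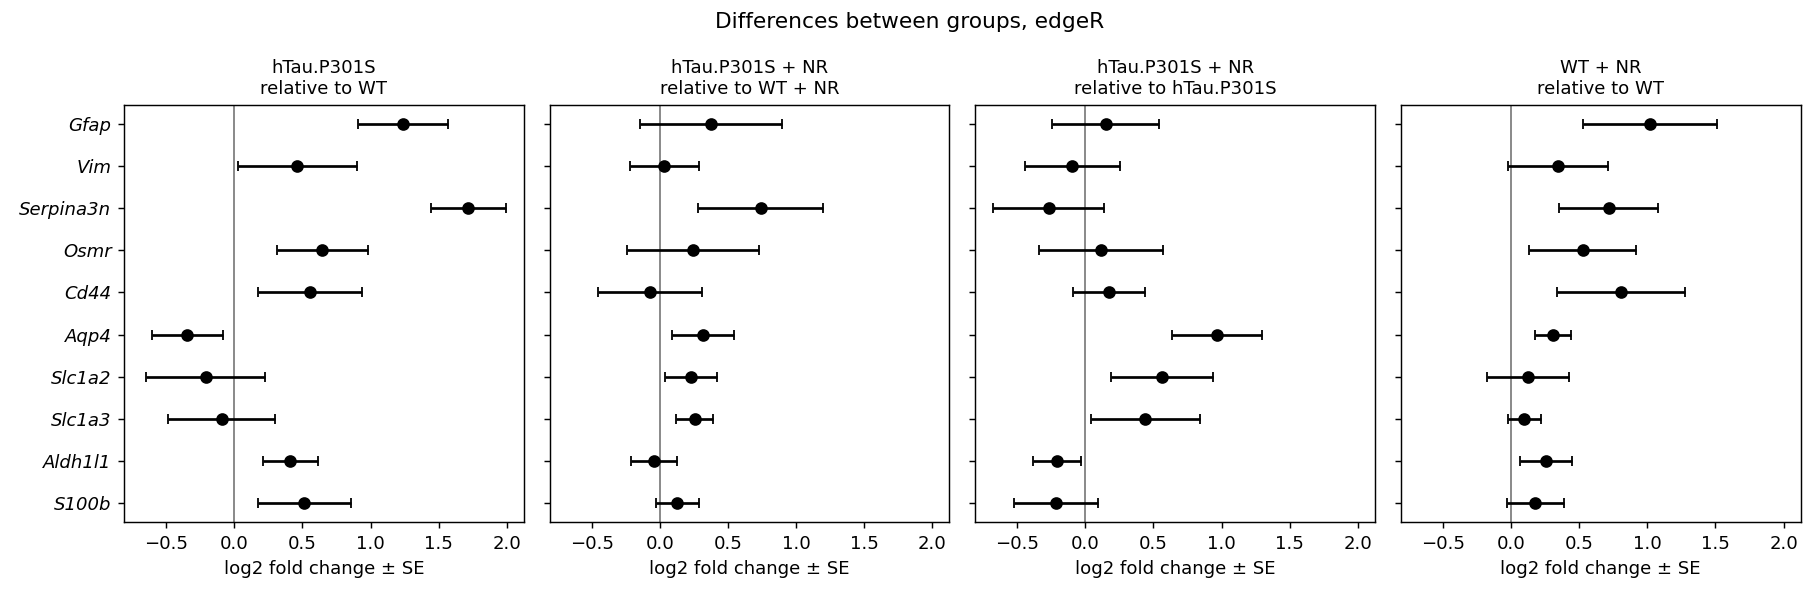
Log2 fold change ± SE from edgeR (x axis) for the 10 genes (y axis) in 4 comparisons of 4 with 4 mice; the line marks no difference. Serpina3n (1.72) and Gfap (1.24) lie farthest from 0 between hTau.P301S and WT, all 10 points lie above 0 for WT + NR against WT, and none of the 40 points passed the threshold.

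For the effect of NR in hTau.P301S mice, the untreated hTau.P301S mice served also in the genotype comparison above, so the values share those mice. Aqp4 had the smallest p of the 10. It measured 54.5, 124, 121 and 107 CPM without NR and 274, 113, 214 and 192 CPM with NR. Treated replicates 1, 3 and 4 lay above all untreated mice, and treated replicate 2 lay among them. The mean was 102 ± 32.2 CPM without and 198 ± 66.4 CPM with NR (SD, n = 4 each), and the log2 difference was 0.97 ± 0.33, or 1.95-fold (unadjusted p = 0.0175, edgeR adjusted p = 0.367). Without hTau.P301S replicate 1 it was 0.77 (unadjusted p = 0.0109, edgeR adjusted p = 0.160). DESeq2 did not call it on the same 8 mice (0.98, adjusted p = 0.182). In a fit of all 4 groups, chosen after seeing the data, DESeq2 called it at 0.98 and an adjusted p of 0.0417, with 0.745% of all genes. No member had an unadjusted p under 0.05 in edgeR with the replicate number as a block or without hTau.P301S + NR replicate 1, where Aqp4 was at 0.95 and 0.78.

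Gfap and Serpina3n did not differ with NR in hTau.P301S mice beyond the spread of the mice. The log2 difference was 0.15 ± 0.39 for Gfap (edgeR adjusted p = 0.849) and -0.27 ± 0.41 for Serpina3n (edgeR adjusted p = 0.730), intervals that leave room for sizeable changes either way. Slc1a2 (0.56 ± 0.38) and Slc1a3 (0.44 ± 0.40) were higher with NR on average, but without hTau.P301S replicate 1 the values were 0.31 and 0.15. The other 5 members lay between -0.22 and 0.17. No member was called by edgeR against 0.00610% of all genes, 1 had an unadjusted p under 0.05 against 12.9%, none was free of overlap against 11.9%, 6 of 10 log2 differences were above 0 against 47.6%, and the median was 0.13 against -0.03 for all genes.

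In WT mice all 10 members were higher on average with NR, whereas 51.1% of all genes were. The median log2 difference was 0.33 against 0.00 for all genes. Without WT + NR replicate 1 it was 0.17 against -0.01, and no member had an unadjusted p under 0.05. Aqp4 again had the smallest p, with 149, 126, 110 and 130 CPM without and 183, 138, 158 and 156 CPM with NR. Treated replicates 1, 3 and 4 exceeded all untreated mice and replicate 2 was below the highest untreated one, and the log2 difference was 0.31 ± 0.13 (unadjusted p = 0.0459, edgeR adjusted p = 0.99994). Gfap (1.02 ± 0.49) and Serpina3n (0.72 ± 0.36) had the unadjusted p values 0.0683 and 0.0792 by edgeR, and without WT + NR replicate 1 the log2 differences were 0.23 and 0.21. Cd44 was at 0.81 ± 0.47 and Osmr at 0.53 ± 0.39, while the other 5 members lay between 0.10 and 0.35. In this comparison edgeR called 0% of genes and no member, 0.790% of genes and 1 of 10 members had an unadjusted p under 0.05, and 0.754% of genes and no member were free of overlap.

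The difference between the NR effects of the 2 genotypes was tested as an interaction over 16 mice. None of the 10 genes was called, as was the case for 0% of genes, and none had an unadjusted p under 0.05, against 7.92% of genes. The smallest p was that of Aqp4, for which the NR difference was 0.66 ± 0.37 greater in hTau.P301S than in WT mice (unadjusted p = 0.0932, edgeR adjusted p = 0.558). For Aldh1l1 the value was -0.45 ± 0.26 (unadjusted p = 0.103, edgeR adjusted p = 0.558), and for Serpina3n it was -0.97 ± 0.58 (unadjusted p = 0.113, edgeR adjusted p = 0.562). The log2 value was above 0 for 3 of 10 against 48.3% of all genes and the median was -0.41 against -0.02, and without hTau.P301S replicate 1 it was -0.25.

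Over the 16 mice, 45 pairs of members were correlated on log2 CPM, and 8 had a Benjamini-Hochberg adjusted permutation p under 0.05. Gfap and Serpina3n were the closest pair, with a Pearson r of 0.90 and a Spearman rho of 0.86 (adjusted permutation p = 0.0009 and 0.00135). Their r was 0.91 without the 2 mice farthest from the Gfap median, 0.88 for deviations from group means and 0.91 without hTau.P301S replicate 1. Osmr followed both, with r of 0.76 to Gfap and 0.72 to Serpina3n (rho 0.62 and 0.66, adjusted permutation p of r = 0.0128 and 0.0160, of rho 0.0730 and 0.0613), and within-group r of 0.72 and 0.74. Without the 2 farthest mice these r were 0.59 and 0.78. Vim followed Gfap with an r of 0.70 (rho 0.65, adjusted permutation p = 0.0160 for r and 0.0613 for rho, and r 0.62 without the 2 farthest mice).

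**Figure D4:**
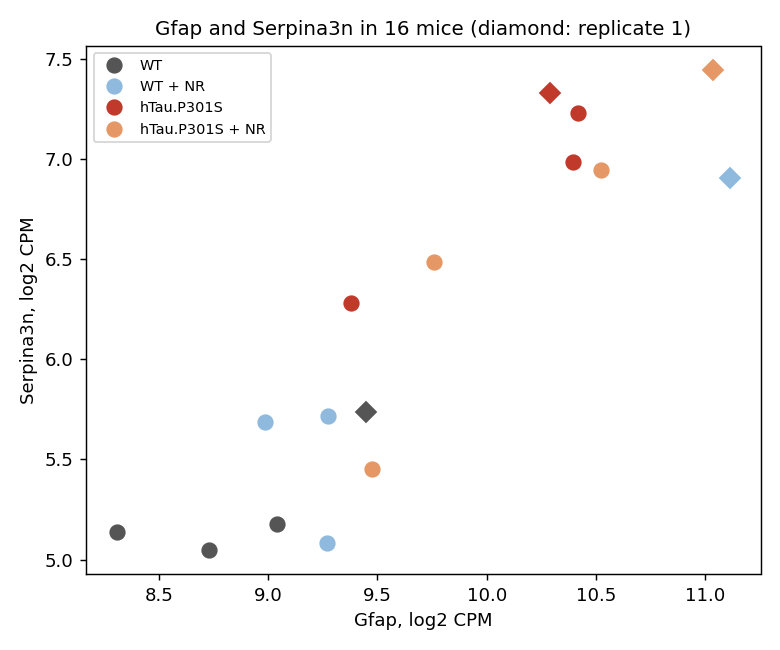
Serpina3n (y axis) against Gfap (x axis), both in log2 CPM, in 16 mice colored by group, with diamonds for the mice numbered 1. The Pearson r is 0.90, and WT + NR replicate 1 lies at high values of both genes, apart from the other WT + NR mice.

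A second group of pairs lost an adjusted p under 0.05 without hTau.P301S replicate 1. Aqp4 had an r of 0.78 with Slc1a3 and 0.71 with Slc1a2 (adjusted permutation p = 0.0160 for each), but rho of 0.30 and 0.51 (adjusted permutation p = 0.485 and 0.195). Without hTau.P301S replicate 1 these r were 0.53 and 0.45, and without the 2 mice farthest from the Aqp4 median 0.14 and 0.29. S100b was correlated with Aldh1l1 (r 0.65, rho 0.65) and inversely with Slc1a2 (r -0.70, rho -0.48), each with an adjusted permutation p of 0.0343 for r and, in that order, 0.0613 and 0.252 for rho. Within groups r was 0.58 and -0.84 (adjusted permutation p = 0.0579 and 0.00112). Without that library r was 0.58 and -0.38 (adjusted permutation p = 0.112 and 0.242), and without the 2 mice farthest from the S100b median 0.58 and -0.37. The opposite held for Gfap and Slc1a3, whose r was 0.07 over 16 mice and 0.71 over 15 without hTau.P301S replicate 1 (adjusted permutation p = 0.887 and 0.0181). Among the 10 genes S100b was the shortest and Slc1a2 the longest. Slopes with gene length also varied among the other 15 libraries, from -0.16 to 0.17. The part of gene length in these correlations was not tested.

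**Figure D5:**
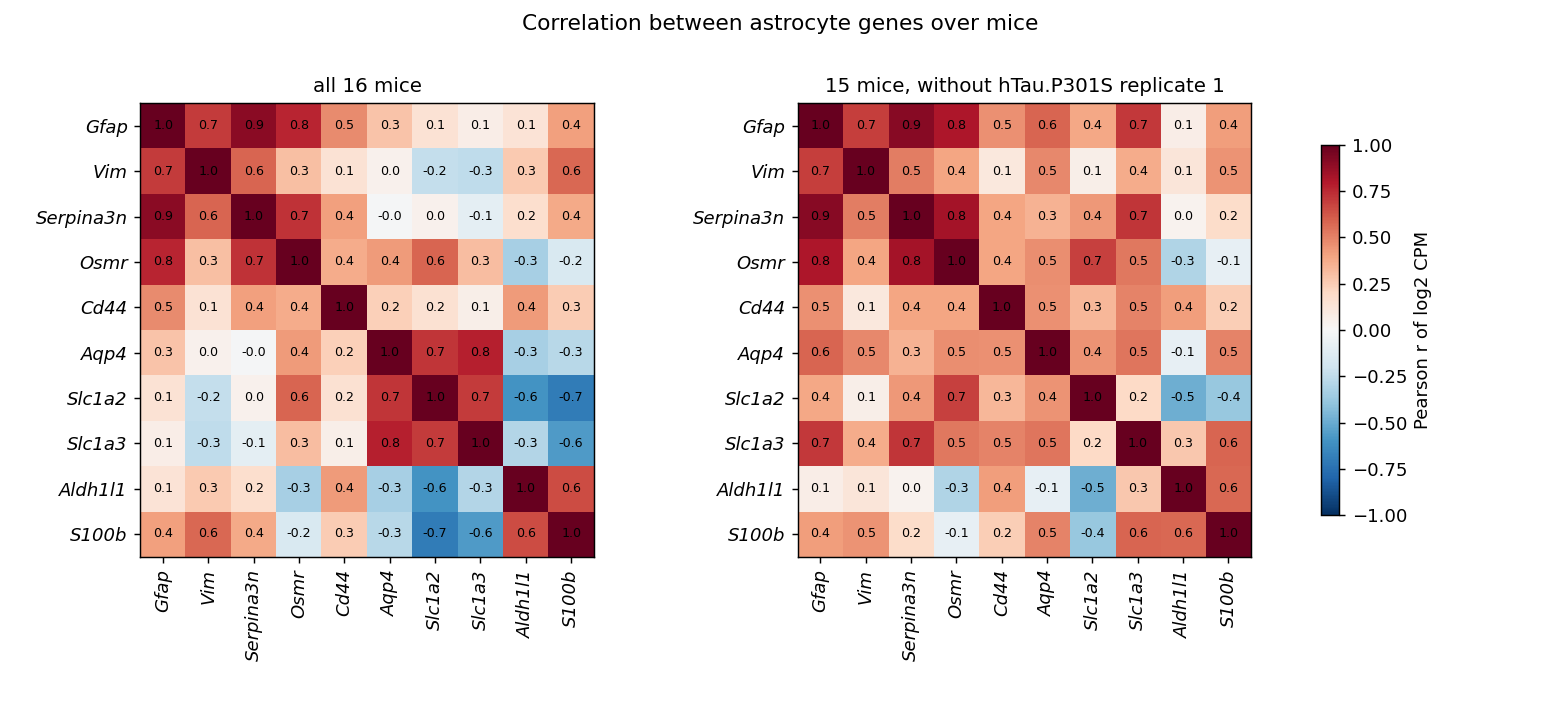
Pearson r of log2 CPM for each pair of the 10 genes (both axes list the genes), on the left over 16 mice and on the right over 15 mice without hTau.P301S replicate 1; red is positive and blue negative. Gfap, Serpina3n and Osmr are positive with each other in both panels, and the negative values of S100b with Slc1a2 and Slc1a3 on the left are weaker or positive on the right.

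Genes most like Gfap among 17554 others, by Pearson r over 16 mice, were Plek (0.93), Itgb2 (0.91), Clec7a (0.91), C4b (0.90) and Serpina3n (0.90). Plek, Itgb2 and Clec7a are known from microglia and other myeloid cells, and C4b encodes a complement component. Serpina3n was most like C4b (0.92), Gpnmb (0.91), Gfap (0.90), Inpp5d (0.88) and C3ar1 (0.87), of which Inpp5d and C3ar1 are known from microglia. Slc1a2 was most like Vps13d, Nsd1, Mycbp2, Tmem131 and Usf3, with r of 0.97 to 0.98, and none of these 5 is known as an astrocyte marker.

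Microglial markers were measured beside the reactive members. The summed level of 8 markers, none of them at 0 in any mouse, was 316 to 412 CPM in WT, 344 to 680 CPM in WT + NR, 391 to 1906 CPM in hTau.P301S and 432 to 604 CPM in hTau.P301S + NR mice. The highest mouse was hTau.P301S replicate 1, which lay within the range of its group for Gfap. Most of its 1906 CPM came from C1qa alone, at 1226 CPM, a gene at 47.1 to 77.0 CPM in WT mice. The highest of the other 15, at 680 CPM, was WT + NR replicate 1, the mouse with the highest Gfap. Between hTau.P301S and WT mice the complement gene C1qa (log2 difference 2.70) and the receptor gene Csf1r (0.48) were higher at an unadjusted p under 0.05, with an edgeR adjusted p of 0.598 for each. Of all genes 7.14% passed that p in either direction, and 3.41% passed it and were higher. Without hTau.P301S replicate 1 C1qa no longer passed (0.74, unadjusted p = 0.0632, edgeR adjusted p = 0.446). Csf1r was then at 0.32 (unadjusted p = 0.0424, edgeR adjusted p = 0.413). The 8 markers had a median of 0.52 with all mice, and one of 0.11 without hTau.P301S replicate 1, where Gfap was at 1.19. The part of microglia in the Gfap and Serpina3n values was not tested.

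Other cell types were counted in the same way. In hTau.P301S relative to WT, the log2 differences had a median of 0.67 over 6 oligodendrocyte markers, 0.10 over 8 neuron markers, -0.07 over 2 oligodendrocyte precursor markers, -0.71 over 6 endothelial and mural markers, -0.99 over 4 fibroblast markers and -1.06 over 5 ependymal and choroid plexus markers. The median over all genes was 0.02. With all mice no marker in these 6 lists had an unadjusted p under 0.05, against 7.14% of all genes. Without hTau.P301S replicate 1 the neuron median was 0.23, and the endothelial genes Cldn5 (0.557-fold, edgeR adjusted p = 0.312) and Flt1 (edgeR adjusted p = 0.386) were lower and the oligodendrocyte gene Mobp (1.78-fold, edgeR adjusted p = 0.407) higher at an unadjusted p under 0.05, as were 11.8% of all genes in either direction. The ependymal and choroid plexus list summed to between 27.2 and 9588 CPM over the 16 mice, with low and high mice in every group. Their part in the results was not tested.

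Other genes of astrocyte identity, 25 in a fixed list, showed no common direction between hTau.P301S and WT mice. Log2 differences were above 0 for 13 of them, against 52.3% of all genes, and below 0 for 12. None had an unadjusted p under 0.05, the median log2 difference was 0.01, and their summed level was 6486 to 8343 CPM in WT and 7175 to 8819 CPM in hTau.P301S mice. Nearest to that threshold was Aldoc, a glycolytic enzyme, at 0.67 ± 0.30 (edgeR adjusted p = 0.598). The GABA transporter Slc6a11 followed at -0.85 ± 0.45 and the neurotensin receptor Ntsr2 at 0.49 ± 0.26. Without hTau.P301S replicate 1, 4 of 25 were higher and 1 lower at an unadjusted p under 0.05, with 11.8% of all genes past it.

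With NR in hTau.P301S mice, 1 of the 25 was higher and 2 lower at an unadjusted p under 0.05, which 12.9% of all genes passed. With hTau.P301S replicate 1 left out, 6 were higher and 4 lower, against 18.0% of all genes. With all mice 4 of 25 were higher and 1 lower without overlap, against 11.9% of all genes in either direction. Among them was Kcnj10, the potassium channel that shares the endfeet with Aqp4. Kcnj10 was 73.9 to 189 CPM without and 241 to 305 CPM with NR (0.88 ± 0.27, unadjusted p = 0.0108, edgeR adjusted p = 0.367). Leaving out hTau.P301S replicate 1 gave 0.68 and an edgeR adjusted p of 0.0603. The interaction of Kcnj10 over 16 mice was 0.81 (unadjusted p = 0.0377, edgeR adjusted p = 0.558), where 7.92% of all genes had an unadjusted p under 0.05. The genes lower at an unadjusted p under 0.05 with all mice were Gjb6, a connexin (-0.49), and Aldoc (-0.68). In the other comparisons 1 of 25 passed at most. For the interaction it was Kcnj10. Between the NR-treated genotypes, where 6.09% of all genes passed, it was Plpp3, a lipid phosphatase, at 0.29 ± 0.10 (unadjusted p = 0.0207, edgeR adjusted p = 0.781). Plpp3 had 315 to 335 CPM in WT + NR and 364 to 456 CPM in hTau.P301S + NR mice.

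Pan-reactive genes, 14 that are raised in several kinds of reactive astrocytes and do not include the members, were mixed. Between hTau.P301S and WT mice 4 were higher and 1 lower at an unadjusted p under 0.05, against 7.14% of all genes, with a median log2 difference of 0.46. Leaving out hTau.P301S replicate 1, 3 were higher and 1 lower, against 11.8%, and the median was 0.17. The metallothioneins, small metal-binding proteins, led the list. Mt1 was 167 to 285 CPM in WT and 495 to 2544 CPM in hTau.P301S mice, without overlap (2.38 ± 0.55, unadjusted p = 0.00196, edgeR adjusted p = 0.529), and 1.54 (edgeR adjusted p = 0.0648) without hTau.P301S replicate 1. Mt2 was at 3.76, or 0.90 without that mouse, so its size rested on 1 library. Lcn2 (1.84) and Aspg (0.98) were the other 2 with higher values, Lcn2 no longer passing without that mouse (1.34, unadjusted p = 0.0774, edgeR adjusted p = 0.466), and Nes, the filament protein nestin, was lower (-1.41 ± 0.44, unadjusted p = 0.0111, edgeR adjusted p = 0.598), against the direction of Gfap. Mean levels in WT mice were low for Mt2 and Lcn2, at 1.40 and 0.82 CPM. The summed level of the 14 was 331 to 518 CPM in WT, 715 to 975 CPM in hTau.P301S replicates 2 to 4 and 3011 CPM in replicate 1. Mt1 alone made up much of this sum. Its mean was 214 CPM of 435 CPM in WT and 1105 CPM of 1398 CPM in hTau.P301S mice, so the sum mostly followed 1 gene.

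With NR in hTau.P301S mice, Mt1 and Mt2 were lower and Nes higher at an unadjusted p under 0.05, all 3 without overlap. Of all genes 12.9% passed that p and 11.9% were without overlap. Mt1 was 217 to 436 CPM with NR (-1.72 ± 0.55, unadjusted p = 0.0125, edgeR adjusted p = 0.367), and -0.87 without hTau.P301S replicate 1. Mt2 was 0.63 to 0.97 CPM with and 1.66 to 67.9 CPM without NR (-4.64, unadjusted p = 0.00623, edgeR adjusted p = 0.367, and -1.77 without that mouse). Nes was 11.1 to 12.7 CPM with and 2.66 to 9.27 CPM without NR (1.13 ± 0.35, unadjusted p = 0.0105, edgeR adjusted p = 0.367). The interaction had an unadjusted p under 0.05 for Mt1 (-2.19) and Mt2 (-5.53), with an edgeR adjusted p of 0.558 for each. In that fit 7.92% of all genes had an unadjusted p under 0.05. In WT mice Mt2 was higher with NR (0.93 ± 0.37, unadjusted p = 0.0346, edgeR adjusted p = 0.99994), where 0.790% of all genes had an unadjusted p under 0.05. Its level was low, with means of 1.40 CPM in WT and 2.66 CPM in WT + NR mice.

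Between the NR-treated genotypes 3 of 14 pan-reactive genes were lower in hTau.P301S + NR mice at an unadjusted p under 0.05, against 6.09% of all genes in either direction. They were Mt2 (-1.79), the heat shock protein gene Hspb1 (-0.79) and Nes (-0.41). Over all 16 mice Mt1 was higher in hTau.P301S mice (1.27 ± 0.43, unadjusted p = 0.00923, edgeR adjusted p = 0.488). Nes was lower in them (-0.90 ± 0.26, unadjusted p = 0.00352, edgeR adjusted p = 0.404). None of the other 12 had an unadjusted p under 0.05, which 7.75% of all genes had in that fit.

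Lists of genes described as raised by inflammation (A1, 13 genes, 12 tested) and by ischemia (A2, 12 genes, 11 tested) gave 2 and 3 higher and none lower between hTau.P301S and WT mice at an unadjusted p under 0.05. Of all genes 7.14% passed it, and 3.41% were higher. The list genes were Fkbp5 and Amigo2 of A1 and Tgm1, Ptx3 and Cd14 of A2. Levels were low for Tgm1, at 0.11 to 0.90 CPM in WT and 0.17 to 7.61 CPM in hTau.P301S mice. They were low also for Ptx3, at 0.28 to 0.69 CPM in WT and 0.61 to 2.31 CPM in hTau.P301S mice. Medians were 0.20 for A1 and 0.93 for A2 and, without hTau.P301S replicate 1, -0.13 and -0.45, so the sign of both rested on that library. Without it Tgm1, Ptx3 and Cd14 no longer passed, and 2 A1 genes were higher and 1 lower and 1 A2 gene higher and 1 lower, against 11.8% of all genes. H2-D1, a class I histocompatibility gene in the A1 list, had the smallest p of any list gene between the NR-treated genotypes, in the opposite direction to Gfap and Serpina3n. It was 56.5 to 87.1 CPM in WT + NR and 31.3 to 39.1 CPM in hTau.P301S + NR mice (-1.08 ± 0.14, edgeR adjusted p = 0.0537). Over 16 mice it was at -0.78 ± 0.21 (edgeR adjusted p = 0.323) and, without hTau.P301S replicate 1, at -0.96, which edgeR called with an adjusted p of 0.0142.

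Of 16 genes of interleukin-6 family signalling, 12 were expressed enough to be tested, and the ligand genes Osm, Cntf, Il6 and Il11 were not. In hTau.P301S relative to WT, the median log2 difference was 0.05. Only Pias3, an inhibitor of STAT3, had an unadjusted p under 0.05, against 7.14% of all genes. Pias3 was 22.9 to 27.3 CPM in WT and 29.7 to 39.6 CPM in hTau.P301S mice (0.41 ± 0.17, unadjusted p = 0.0386, edgeR adjusted p = 0.598). It was 22.5 to 24.9 CPM in hTau.P301S + NR mice (-0.49 ± 0.15 against hTau.P301S, unadjusted p = 0.0110, edgeR adjusted p = 0.367), where 12.9% of all genes passed an unadjusted p of 0.05. Socs3, a STAT3 target and feedback inhibitor, was at 0.60 ± 0.44 (edgeR adjusted p = 0.618) and Jak2 at -0.19 ± 0.16 (edgeR adjusted p = 0.665) in the first of these comparisons. In WT mice the receptor gene Il6ra was higher with NR (0.43 ± 0.17, unadjusted p = 0.0340, edgeR adjusted p = 0.99994). It had 7.28 to 10.36 CPM without and 10.37 to 14.1 CPM with NR, so the groups only just did not overlap. Of all genes 0.790% had an unadjusted p under 0.05 in that comparison and 0.754% were without overlap.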

How the data were processed

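Hippocampal RNA of 16 mice was sequenced from NEBNext libraries. Per the submitters' notes and the study's methods, the authors trimmed reads with FastQC and Trim Galore, aligned them with STAR to mm10 and counted reads per gene with RSEM (versions not given in the sources used here); the deposited values are whole, unnormalized counts per gene. The deposited gene length equalled summed GENCODE vM21 exons (GRCm38.p6) for 98.0% of genes.

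Counts were filtered (filterByExpr), TMM-scaled and tested with edgeR 4.0.16 (quasi-likelihood) in R 4.3.3, with Benjamini-Hochberg adjustment over all genes tested. Called means an adjusted p under 0.05 with an absolute log2 fold change above 0.5. Each pair of groups was fitted on its own 8 mice; genotype with NR as a covariate, and the interaction, on 16. The script was tested on simulated data. Log2 CPM used a prior count of 2. Correlations used 100000 permutations (scipy 1.17.1). Alternatives were DESeq2 1.42.0, other scalings and filters, a fit of all groups, a replicate block, removal of the length trend and leaving out each mouse. DESeq2 on 4 groups, leaving out both NR-treated mice numbered 1, and list counts without hTau.P301S replicate 1 were chosen after seeing the data.

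The 10 genes and all lists were chosen with earlier results of these data known. Named list genes were those with an adjusted p under 0.05, or else the 3 with the smallest unadjusted p; other list genes were named after their values were seen, for an unadjusted p under 0.05. Nothing states how mice shared litters or batches, so p-values measure the spread between these mice. The values of 1 marker gene are not reported here.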

Additional observations from a re-analysis of the deposited data

Results flagged for a closer look

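In 5 of 40 combinations of gene and group of 4 mice, 1 mouse lay farther from the others than Dixon's 95% critical value for the gap over the range. Chance flags about 1 in 20 groups. Gfap in WT + NR replicate 1 was 2213 CPM, the highest of its group by 0.93 of the range, and Gfap in hTau.P301S replicate 4 was 666 CPM, the lowest of its group. Vim in WT replicate 3 was 29.7 CPM and lowest, and Serpina3n in WT replicate 1 was 53.2 CPM and highest. Slc1a3 in hTau.P301S replicate 1 was 173 CPM, the lowest of its group by 0.90 of the range. The 5 values came from 5 different mice.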

How the results depend on the processing

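The number of members called by edgeR, 0 in each of 6 comparisons, became 1 (Serpina3n) between hTau.P301S and WT with DESeq2 on the same mice or on all 4 groups (116 of 30014 and 492 of 32880 genes called), 1 (Aqp4) for NR in hTau.P301S mice with DESeq2 on all 4 groups (0.745%), and 1 (Serpina3n) for genotype over 16 mice with DESeq2 (0.332%) and, among fits leaving out 1 mouse, in a range of 0 to 1, the 1 being without WT + NR replicate 1 (0.257%). Without both NR-treated mice numbered 1, the genotype value of Serpina3n had an edgeR adjusted p of 0.0567. Of the log2 differences recomputed, 1179 kept sign and side of the threshold, 5 passed it and 46 changed sign, none of the 46 being called. The cause of these changes was not tested.

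Sign changes by setting were as follows. With the length trend removed, hTau.P301S against WT gave Slc1a2 0.060 and Slc1a3 0.0021; NR in hTau.P301S mice gave Serpina3n 0.091, Cd44 -0.090, Osmr -0.33 and S100b 0.35; genotype over 16 mice gave Aqp4 0.017; and the interaction gave S100b 0.13. Genotype over 16 mice gave Slc1a2 -0.0029 with at least 10 counts in every mouse and -0.062 without both NR-treated mice numbered 1. Leaving out 1 mouse gave, for hTau.P301S against WT, -0.49 to 0.042 for Slc1a2 and -0.23 to 0.20 for Slc1a3. For hTau.P301S + NR against WT + NR it gave -0.15 to 0.26 for Vim, -0.34 to 0.099 for Cd44, -0.17 to 0.70 for Osmr and -0.14 to 0.094 for Aldh1l1. For NR in hTau.P301S mice it gave -0.18 to 0.35 for Gfap, -0.27 to 0.21 for Vim, -0.044 to 0.34 for Cd44, -0.29 to 0.36 for Osmr and -0.35 to 0.20 for S100b. For NR in WT mice it gave -0.12 to 0.28 for Slc1a2, for genotype over 16 mice -0.13 to 0.11 for Aqp4 and -0.086 to 0.15 for Slc1a2, and for the interaction -0.81 to 0.045 for Osmr and -0.52 to 0.028 for S100b. Gfap and Serpina3n between hTau.P301S and WT ranged from 1.06 to 1.42 and from 1.58 to 1.88.

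The sources used here do not state whether mice with the same number were paired, and the main fits did not pair them. Of 24 correlations of their deviations, 8 were above 0.1 (range -0.54 to 0.42). Of 16 mice, 5 were most like a mouse of their own number. These values cannot settle whether mice were paired, because litters and batches are not given. With the replicate number as a block no member was called, Serpina3n between hTau.P301S and WT was 1.69 (edgeR adjusted p = 0.700), and the sign turned for Cd44 between the NR-treated genotypes (0.014) and Osmr for NR in hTau.P301S mice (-0.046).

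Of the 8 correlated pairs, 4 kept an adjusted p under 0.05 without hTau.P301S replicate 1. With 4 mice a group, a difference larger than its printed SE could not always be told from 0 either. Osmr between hTau.P301S and WT was at 0.65 ± 0.33, with an unadjusted p of 0.0858 by edgeR's quasi-likelihood test. The printed SE was the absolute log2 difference divided by the square root of that test's F value.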
